A study of Mus musculus with 9 samples.

Results

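The samples described here are the 5 wild-type bead arrays, of 9 arrays in the series, that profiled LSK cells sorted from mouse bone marrow 6 days after 5-fluorouracil (5-FU). They were chosen by their titles, which give genotype, cell type and day, and they are described alone. The donors were wild-type male C57BL/6 mice aged 12 weeks that had received 5-FU at 150 µg/g. The other 4 arrays hold Socs2 knockout LSK cells from mice of the same strain, sex, age and treatment, so the series holds no untreated sample and no other day. Cells were sorted straight into Trizol, and amplification of 250 pg of total RNA per sample (NuGEN WT-Ovation Pico) preceded biotin labelling. The labels do not say whether an array holds 1 mouse or a pool, and the spread between arrays may therefore be partly technical. Expression is given as the authors' deposited log2 value of the brightest probe of each gene, for 19057 genes with a platform symbol.

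LSK cells lack the surface markers of mature lineages and carry Sca-1 and Kit. The fraction contains haematopoietic stem cells and the multipotent progenitors that descend from them. In unperturbed marrow most stem cells are quiescent. 5-FU is a pyrimidine analogue that blocks thymidylate synthase and enters RNA, so it kills cycling cells, and the surviving stem and progenitor cells then divide to rebuild the blood. It is also known to lower Kit and to raise Mac-1 (Itgam) on the surface of primitive cells.

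The labels were checked on the genes that define them. Socs2, an inducible inhibitor of cytokine receptor signalling, had log2 values of 6.81, 6.78, 6.58 and 6.70 on Socs2 knockout arrays, against 9.59, 9.39, 10.36, 9.38 and 9.65 on wild-type arrays, on its brightest probe. Every wild-type array therefore carried Socs2 signal, although the gene's other probe was above 7.5 on wild-type array 2 alone, at 8.93. Xist, the X-inactivation RNA of female cells, averaged 7.07 and was at or below 7.5 on every wild-type array. The Y-linked gene Eif2s3y read 10.56, 10.68, 10.27 and 10.43 on wild-type arrays 1, 2, 3 and 5 but 6.79 on array 4. Of other Y-linked genes, Uty read 8.93, 7.29, 6.97, 8.62 and 7.09 and Kdm5d 9.69, 8.26, 6.85, 6.69 and 9.75, so each array had at least 1 of the 3 above 7.5. Kit was above 7.5 on all 5 arrays, and Ly6a, which encodes Sca-1, had no named probe and was not analysed here.

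As processed by the authors, the 5 arrays had similar levels, which does not show how alike they were before processing. Their medians over all probes lay between 7.11 and 7.18, and each had 7878 to 8124 genes above 7.5, a level just over the main body of dim probes that is used here as the minimum. Pearson correlations between pairs of arrays, over all probes, lay between 0.770 and 0.866. Array 3 had the lowest median correlation with the others, at 0.800, and array 1 the next, at 0.812, against 0.829 to 0.840 for the other 3. In cells measured in bulk, fewer cells of a type and less RNA per cell cannot be told apart, which applies to every level below.

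Of the 19057 genes, 4883 were above 7.5 on all 5 arrays, a background share of 25.6% against which each gene list below is read. A further 6687 genes (35.1%) were above it on 1 to 4 arrays, and 7487 (39.3%) were at or below it on every array. The median of the mean log2 value was 7.41 over all genes and 10 over the 4883. The plot of gene lists shows how far the lists spread around the background share. Genes of energy supply, protein synthesis, chromatin and cell division lay far above it. Genes of B lymphoid, eosinophil and stromal cells lay below it, while T and NK genes lay nearer to it. These are counts of members with no test, and several lists share members.

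**Figure D1:**
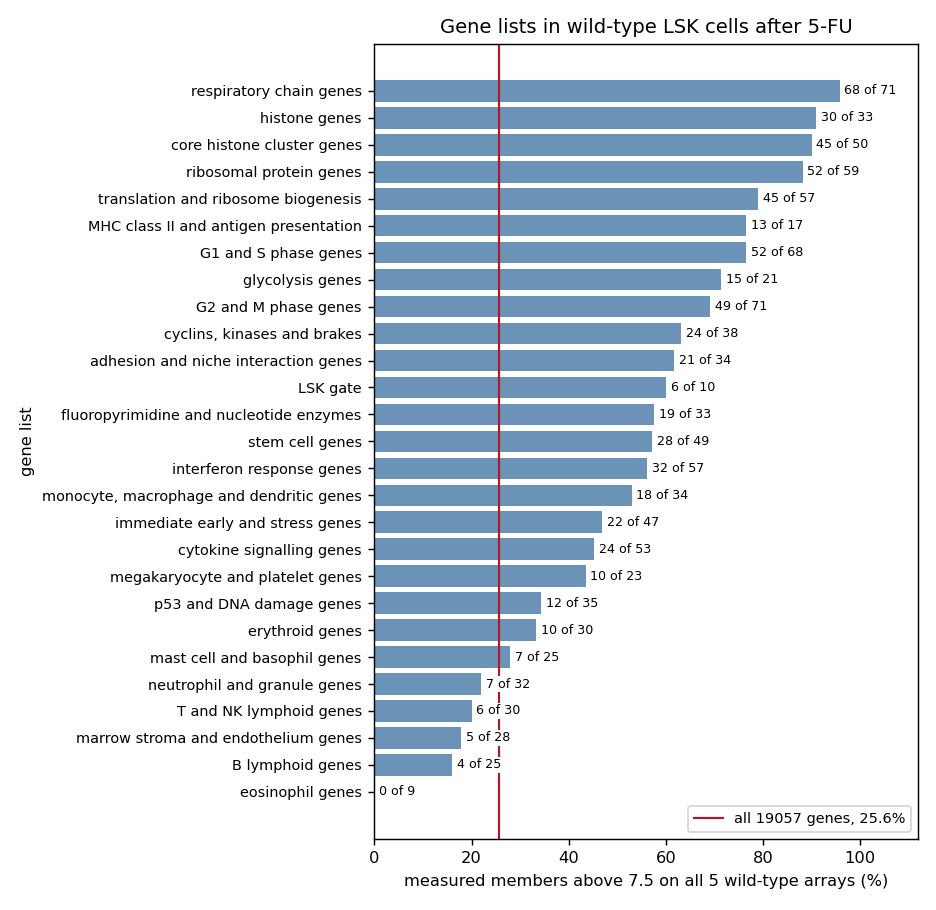
Share of the measured members of each gene list that were above 7.5 on all 5 wild-type arrays (bars, in percent, with counts), beside the share of all 19057 genes (vertical line, 25.6%). Respiratory chain, histone and ribosomal genes stand highest, at 68 of 71, 30 of 33 and 52 of 59, and eosinophil genes lowest, at 0 of 9.

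The brightest gene was Rpl23, a protein of the large ribosomal subunit, with log2 values of 15.53, 15.43, 15.36, 15.49 and 15.35. Ribosomal proteins made up 7 of the 25 brightest genes, the others being Rpl27a, Rpl3, Rps29, Rpl41, Rpl38 and Rps24. These 7 hardly moved between arrays, with SDs of 0.056 to 0.158. The histone gene H2ac10 ranked 16th, with a mean of 13.74 ± 0.08 (SD, n = 5). Ranks here are ranks of probe signal, which also depends on the probe, so they do not order transcripts by abundance.

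Several of the 25 are genes of quite different functions. Ctcfl, a paralogue of the chromatin organiser CTCF known chiefly from germ cells, read 15.33, 15.08, 15.17, 15.43 and 15.16, on its only probe. Erich5, a little-studied glutamate-rich protein, averaged 15.06 ± 0.06 (SD, n = 5). Terf2ip, the telomere protein RAP1, averaged 14.69 ± 0.18 (SD, n = 5), and the ubiquitin ligase Rchy1 averaged 14.54 ± 0.17 (SD, n = 5). The actin-capping subunit Capza2, the serine racemase Srr, the histone demethylase Kdm7a, the calcium sensor Stim1, the kinetochore protein Spc24 and the splicing assembly factor Gemin2 followed between 13.76 and 14.37. Of immune genes, the set held Ifngr2, a chain of the interferon gamma receptor, at 13.93, and the inhibitory receptor Siglece at 13.86. It also held perforin (Prf1), the pore-forming protein of killer lymphocytes, at 13.85, and Tapbp, which loads peptides on MHC class I, at 13.72. The remaining members were the rhomboid protease Rhbdl2, the receptor phosphatase Ptprs and the zinc finger protein Zbtb2.

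For many of these bright genes the probes disagreed. Among the 25, 20 had more than 1 probe, and in 9 of those another probe was also above 7.5 on all 5 arrays. In the other 11, no second probe met that criterion. For Erich5 and Rhbdl2 every other probe was at or below 7.5 on all 5 arrays, with means of 6.77 and 6.94. Prf1 likewise had a second probe with a mean of 7.09, above 7.5 on 1 array. By contrast, second probes averaged 13.54 for Rpl23, 13.51 for Srr, 12.89 for H2ac10, 12.09 for Rpl27a and 11.87 for Ptprs. When the probes of each gene were averaged in place of taking the brightest, 6 of the 25 remained among the 25 brightest.

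**Figure D2:**
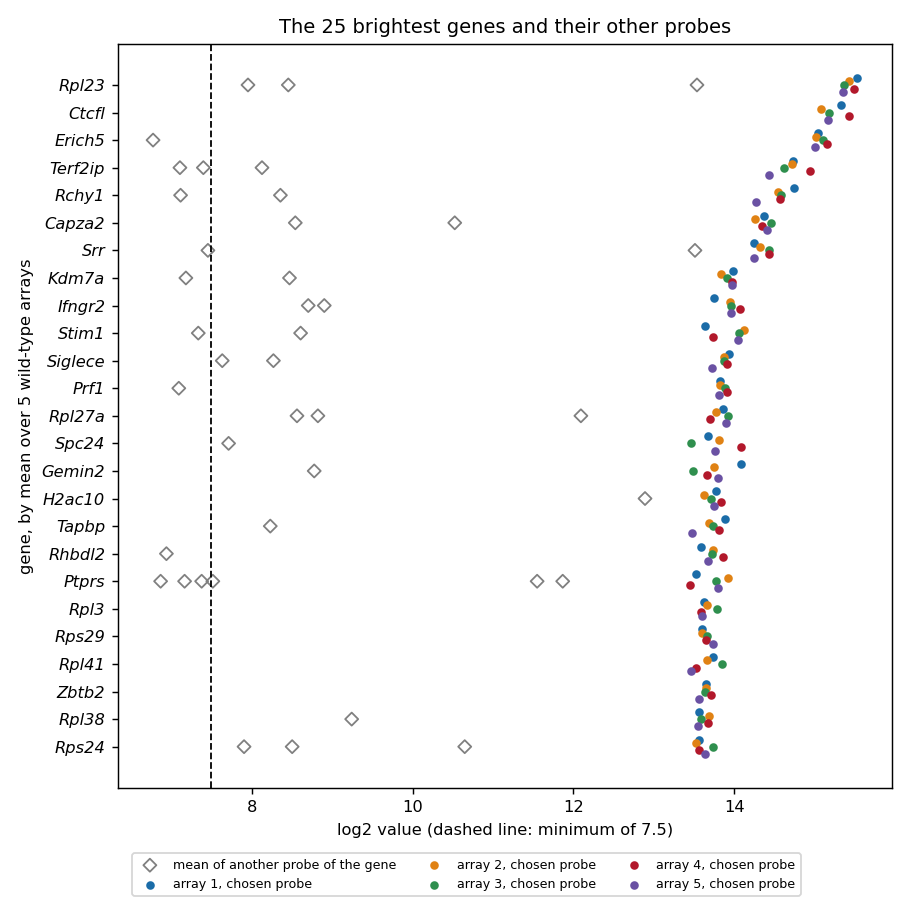
Log2 values of the 25 brightest genes on each of the 5 wild-type arrays (coloured points, brightest probe) and the mean of every other probe of the same gene (open diamonds). The 5 arrays sit close together for each gene, while the other probes of Erich5, Rhbdl2 and Prf1 lie below the minimum of 7.5.

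Most protein synthesis and energy genes were above the minimum. Ribosomal protein genes were above 7.5 on all 5 arrays in 52 of 59 measured members (88.1%), with a median SD of 0.156 among the 52. A few members were uneven, such as Rplp0, a stalk protein of the large subunit, which read 11.68, 10.55, 10.37, 7.72 and 11.46, and Rpl17, at 6.84, 11.68, 11.30, 10.35 and 11.62. The other Rplp0 probe had a different order, at 8.61, 9.21, 7.63, 9.31 and 8.91, with array 4 highest. Rpl17 was low on array 1. Rpl4 was at 6.87 on array 3 and between 9.94 and 10.71 on the others. Among translation and ribosome biogenesis genes, 45 of 57 (78.9%) were above 7.5 throughout. The elongation factor Eef1a1 averaged 13.50 ± 0.07, the nucleolar proteins Npm1 12.38 ± 0.36 and Ncl 11.52 ± 0.26, and the initiation factor subunit Eif3i 13.12 ± 0.05 (SD, n = 5 each).

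Respiratory chain genes were the most completely detected list, with 68 of 71 members (95.8%). Ndufb8 of complex I averaged 12.78 ± 0.34, Cox6c of complex IV 12.78 ± 0.11, and the ATP synthase subunit Atp5b 12.47 ± 0.27 (SD, n = 5 each). Ndufb6 had the largest SD of the 68, at 8.89 on array 3 and 11.42 to 11.57 on the other arrays. Glycolysis genes followed with 15 of 21 (71.4%), among them Mif at 13.10 ± 0.08, Tpi1 at 11.95 ± 0.09, Ldha at 11.80 ± 0.21 and Gapdh at 11.52 ± 0.17 (SD, n = 5 each). Mif encodes a cytokine, unlike the enzymes beside it. The brain-type isoenzymes Eno2 and Aldoc were at or below 7.5 on every array, and Ldhb was above it on array 1 alone, at 7.56.

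Core histone genes were bright and steady. The histone clusters encode H2A, H2B, H3 and H4, and most of their genes are transcribed in S phase to package newly made DNA. Of 50 measured cluster genes, 45 were above 7.5 on all 5 arrays, with a median mean of 12.72 and a median SD of 0.148 among the 45. H2bc12 read 13.40, 13.66, 13.39, 13.70 and 13.58, and H4c1 read 13.22, 13.14, 13.36, 13.23 and 13.01. H3c14 was among the steadiest genes on the arrays, at 12.66 ± 0.03 (SD, n = 5). The genes at or below 7.5 on all arrays were H2ac1, H2ac6 and H2bc1, of which H2ac1 and H2bc1 are testis variants. Cluster genes of a class are near-identical in their coding parts, so a probe may read its relatives and the values of single members are uncertain. The family rule was set after the ranking was seen. A separate list of histone genes, which overlaps it and adds linker and replacement histones, had 30 of 33 members (90.9%) above 7.5 throughout, including H2az1 at 13.12 ± 0.15 and H3f3b at 12.30 ± 0.19 (SD, n = 5 each).

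The stretches just before 5 of these genes are printed to show which sequence elements the promoters of this bright family hold. They are the 150 bases before the RefSeq start on GRCm38.p6, 5′ to 3′ on the gene's strand, and capitals mark the octamer ATTTGCAT or the CCAAT element on either strand, with no match overlapping another. They cover H2bc12 (chr13:22035671-22035820, plus strand), H2bc11 (chr13:22043048-22043197, plus strand), H2bc14 (chr13:21721894-21722043, plus strand), H2ac10 (chr13:23533725-23533874, plus strand) and H4c1 (chr13:23761250-23761399, minus strand).
H2bc12: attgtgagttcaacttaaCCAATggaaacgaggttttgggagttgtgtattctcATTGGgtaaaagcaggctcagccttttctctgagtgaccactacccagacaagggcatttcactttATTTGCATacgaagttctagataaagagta
H2bc11: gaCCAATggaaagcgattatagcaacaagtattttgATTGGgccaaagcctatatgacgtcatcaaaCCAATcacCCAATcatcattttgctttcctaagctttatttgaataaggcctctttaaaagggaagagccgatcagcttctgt
H2bc14: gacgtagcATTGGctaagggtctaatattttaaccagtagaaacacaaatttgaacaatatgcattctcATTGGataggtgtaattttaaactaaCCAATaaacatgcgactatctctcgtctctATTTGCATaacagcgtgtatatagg
H2ac10: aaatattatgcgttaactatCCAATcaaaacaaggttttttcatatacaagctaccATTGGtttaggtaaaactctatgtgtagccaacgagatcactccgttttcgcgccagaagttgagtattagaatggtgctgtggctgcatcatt
H4c1: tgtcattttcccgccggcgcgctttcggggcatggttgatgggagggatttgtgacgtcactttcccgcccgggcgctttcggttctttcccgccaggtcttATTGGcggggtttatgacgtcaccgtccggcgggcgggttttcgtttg

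RefSeq gave a promoter for 45 of the 50 cluster genes. In the 250 bases before the start, read on both strands, the octamer, the binding sequence of POU-domain factors and a known H2B promoter element, lay in 7 of 11 H2B genes, 6 of 16 H2A genes, 0 of 7 H3 genes and 0 of 11 H4 genes, against 1.81% of 27025 genes. CCAAT, the NF-Y sequence, lay in 11 of 11 H2B, 16 of 16 H2A, 6 of 7 H3 and 3 of 11 H4 genes, against 37.5% of all. TATAAA lay in 6 of 11 H2B, 7 of 16 H2A, 2 of 7 H3 and 6 of 11 H4 genes, against 14.3%. H2bc12 and H2bc14 held the octamer 30 and 25 bases before the start, and H2bc11 held none in its 250 bases. A match is a description of letters, not evidence of binding.

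Cell division genes were on broadly. G1 and S phase genes were above 7.5 on all 5 arrays in 52 of 68 measured members (76.5%), and none of the 68 was at or below it on every array. The Mcm helicase subunits, which license replication origins, were among its brightest members. Mcm6 read 12.74, 12.93, 12.91, 12.47 and 12.81, Mcm4 averaged 12.20 ± 0.26, Mcm5 12.04 ± 0.38 and Mcm2 11.37 ± 0.35 (SD, n = 5 each). The maintenance methyltransferase Dnmt1 and its partner Uhrf1, which copy methylation onto new DNA, averaged 12.52 ± 0.31 and 12.23 ± 0.24 (SD, n = 5 each). The sliding clamp Pcna averaged 11.19 ± 0.26 and ribonucleotide reductase Rrm2, which makes deoxynucleotides, 11.64 ± 0.39 (SD, n = 5 each).

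Other S phase genes differed strongly between arrays. Chek1, the kinase that guards stalled replication forks, read 7.10, 10, 6.66, 9.11 and 11.68, but another of its probes was above 7.5 on all 5 arrays, at 9.15, 9.25, 8.14, 7.77 and 9.28. Mcm10, a fork-loading factor, read 6.68, 9.63, 10.40, 8.96 and 7.48, while other probes of it were above 7.5 on arrays 1 and 5, at 8.76 and 8.11. The transcription factor E2f1 was low on array 1, at 8.25, and between 9.92 and 11.46 on the other 4. The E cyclins, which with Cdk2 start replication, were near the minimum, with Ccne2 above it on 3 arrays and Ccne1 on array 3 alone, at 8.45.

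G2 and M phase genes were above 7.5 throughout in 49 of 71 members (69.0%). Spc24, a kinetochore protein, averaged 13.76 ± 0.23, with a second probe at 7.71. Tubb5, Stmn1, Cks1b and Tuba1b, which serve the spindle or the cyclin-dependent kinases, averaged 13.07 ± 0.12, 12.36 ± 0.16, 12.11 ± 0.26 and 12.06 ± 0.21 (SD, n = 5 each). Among regulators of mitotic entry and exit, Cdk1 read 10.12, 10.81, 10.32, 9.94 and 10.52, and the topoisomerase Top2a read 10.50, 10.19, 10.07, 10.24 and 9.25. Plk1 was uneven, at 10.34, 11.78, 8.13, 10.66 and 10.21, with array 3 low. Aurka was at 6.98 on array 1 and between 8.16 and 10.85 elsewhere, and the brightest Bub1 probe was above 7.5 on arrays 2 and 5, at 10.53 and 9.36. The other Bub1 probe read 8.23, 8.65, 6.66, 7.92 and 7.44, above it on arrays 1, 2 and 4. Racgap1, Ccnf and Pttg1 were at or below 7.5 on every array, and Ccnb2 was above it on array 2 alone, at 7.89. Ccnb1 and Mki67 had no named probe.

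The D cyclins and their kinases, which carry cells out of G1 in response to growth signals, were all above 7.5 on every array. Ccnd1 read 12.20, 12.23, 12.00, 12.54 and 11.79, Ccnd3 averaged 11.87 ± 0.41 and Ccnd2 10.94 ± 0.56 (SD, n = 5 each). Their partners Cdk4 and Cdk6 averaged 10.88 ± 0.33 and 9.99 ± 0.50, and Cdk2 averaged 11.81 ± 0.41 (SD, n = 5 each). Over the whole list of cyclins, kinases and brakes, 24 of 38 members (63.2%) met the criterion. Myc, a driver of growth, averaged 10.79 ± 0.41 (SD, n = 5).

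The brakes were split. Cdkn1b (p27) was above 7.5 on all 5 arrays but uneven, at 7.68, 11.06, 10.19, 9.87 and 11.04, with array 1 low. Cdkn2d (p19) averaged 9.55 ± 1.25 (SD, n = 5). Cdkn1a (p21) was near the minimum on 4 arrays, at 7.53, 7.32, 7.71 and 7.34 on arrays 2 to 5, and stood at 9.38 on array 1. Cdkn1c (p57), a brake known for stem cell quiescence, was above 7.5 on arrays 3 and 5, at 8.84 and 7.94. Cdkn2c (p18) was at 10.29 on array 3 and at or below 7.14 on the others, while its next brightest probe was at or below 7.5 on every array. Cdkn2a and Cdkn2b were at or below 7.5 on every array.

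**Figure D3:**
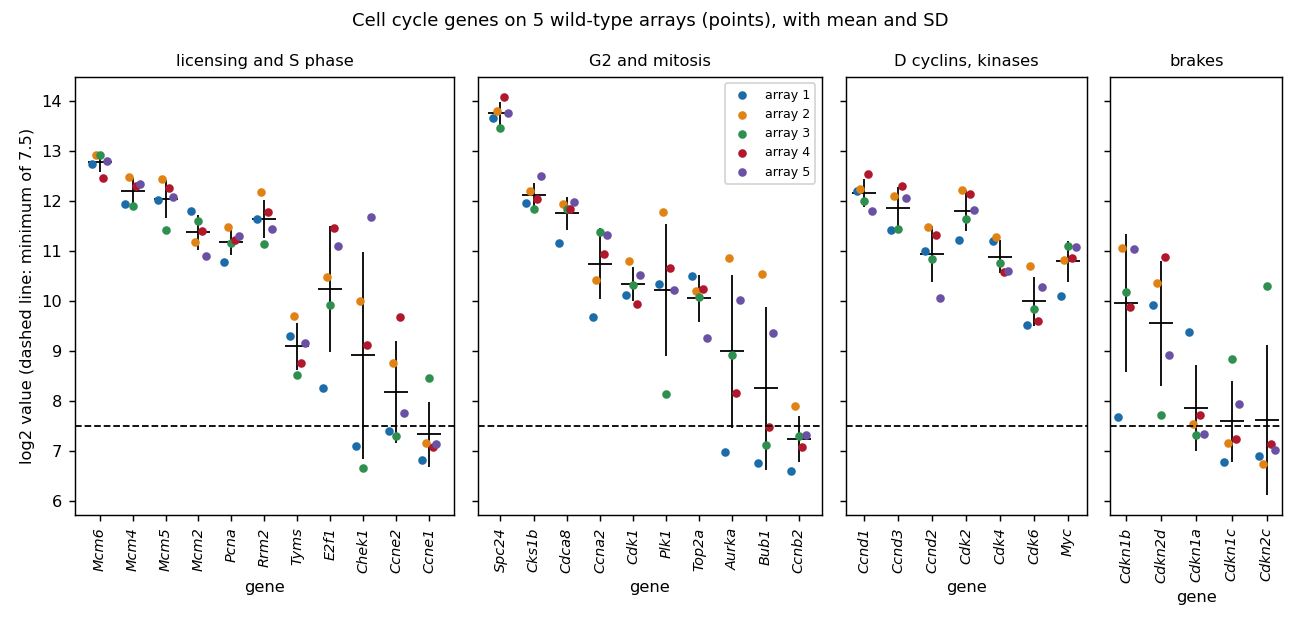
Log2 values of cell cycle genes on the 5 wild-type arrays (coloured points), with the mean (horizontal tick) and SD (vertical line), in 4 groups by role. Mcm6, Mcm4, Mcm5 and Mcm2 lie well above the minimum of 7.5 on every array, whereas the brightest probes of Chek1, Aurka and Bub1 cross it and Cdkn1a, Cdkn1c and Cdkn2c lie near it on most arrays.

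Enzymes that handle 5-FU and nucleotides were partly on, in 19 of 33 measured members (57.6%). Thymidylate synthase (Tyms), the target of the drug, read 9.30, 9.70, 8.52, 8.75 and 9.16. Umps, which turns 5-FU into its nucleotide, averaged 9.94 ± 1.04 (SD, n = 5), and the nucleoside kinase Tk1 averaged 10.15 ± 0.66 (SD, n = 5). Ung, which removes uracil from DNA, averaged 11.44 ± 0.30, and Nme1, a nucleoside diphosphate kinase, 12.79 ± 0.11 (SD, n = 5 each). At the other end, Dpyd, which breaks down most 5-FU, was at or below 7.5 on all 5 arrays. So were Dpys, Upb1, Cda and Tymp. Fpgs, which traps folates in the cell, was the most uneven of the members above 7.5 throughout, at 10.57, 7.84, 8.48, 8.15 and 11.34.

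Genes of the p53 and DNA damage response were above 7.5 on all 5 arrays in 12 of 35 members (34.3%). Mdm2, the ligase that degrades p53 and is itself a p53 target, averaged 11.42 ± 0.42, and the p53 target Ccng1 10.75 ± 0.28 (SD, n = 5 each). The death receptor Tnfrsf10b averaged 12.12 ± 0.15 (SD, n = 5) on 1 of its 5 probes, and no other was above 7.5 throughout. The cell death gene Bbc3 (Puma) was at 6.91 on array 4 and between 9.62 and 10.58 on the others. Gadd45g was at 6.85 on array 1 and between 9.05 and 11.13 elsewhere. Fas, Zmat3, Atr and Plk3 were at or below 7.5 on every array.

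Stem and progenitor genes were well represented. Of the 10 genes used in or beside the LSK gate, 6 were above 7.5 on all 5 arrays (60.0%). Kit, the stem cell factor receptor, read 7.94, 10.96, 9.24, 8.22 and 9.93, a span of 3.02 between arrays 1 and 2, and neither of its other 2 probes was above 7.5 throughout. Those probes read 9.27, 8.02, 8.17, 7.18 and 8.25, and 10.50, 7.49, 8.65, 7.39 and 7.61, both highest on array 1, where the brightest probe was lowest. Cd34, which marks short-term stem cells and multipotent progenitors, was steady at 9.0, 9.06, 9.10, 8.70 and 9.14. Flt3, a receptor of lymphoid-primed multipotent progenitors, averaged 10.46 ± 0.74, Cd48 9.39 ± 0.70 and Cd27 11.29 ± 0.56 (SD, n = 5 each). Slamf1 (CD150), carried by long-term stem cells, was high on array 3 alone, at 11.23, and between 7.43 and 8.32 on the other arrays. Its other probes read 7.10 and 6.98 on array 3, and the brighter of them was highest on array 2, at 8.53.

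Of 49 stem cell genes measured, 28 were above 7.5 on all 5 arrays (57.1%) and 1, Fgd5, on none. Lmo2, an adaptor of the blood transcription factor complex, averaged 12.58 ± 0.11, and Myb, required for definitive haematopoiesis, 12.14 ± 0.39 (SD, n = 5 each). Msi2, an RNA-binding regulator of stem cell output, averaged 11.84 ± 0.27, and 3 of its other 5 probes were above 7.5 throughout. Meis1 and Mecom, transcription factors that maintain stem cells, read 9.19, 11.89, 10.76, 10.69 and 10.88 for Meis1 and 8.61, 10.90, 9.86, 8.97 and 10.27 for Mecom. Both were lowest on array 1 and highest on array 2 on these probes.

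Gata2 was the most variable of the stem cell genes above 7.5 throughout, at 10.41, 11.55, 8.21, 11.44 and 11.20, with array 3 low. Hlf and Procr, genes closely tied to long-term stem cells, averaged 10.17 ± 0.61 and 9.79 ± 0.75 (SD, n = 5 each). Runx1 was above 7.5 on 4 arrays, at 7.38 on array 1 and 9.18 to 9.86 on the others. Its other probe read 10.81, 7.77, 6.82, 7.75 and 9.92, highest on array 1. Hoxa9 just missed the criterion, with a value at the minimum on array 1 against 9.06 to 10.53 elsewhere. Tal1 was above 7.5 on arrays 2 and 5 alone, at 7.67 and 8.71.

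Neutrophil and granule genes were above 7.5 on all 5 arrays in 7 of 32 members (21.9%), near the background share of 25.6%. The count rested on array 4, since 12 of 32 (37.5%) passed without it, against 27.2% of all genes. Among the primary granule proteases that begin in progenitors, Prtn3 met the criterion narrowly, at 9.44, 9.68, 8.21, 9.07 and 7.54. Mpo missed it narrowly, at 11.83, 11.41, 10.53, 7.49 and 9.80, and Ctsg read 10.76, 10.23, 10.71, 7.38 and 9.96. Both were lowest on array 4, as was each of the other 3 Mpo probes, of which 1 was above 7.5 on all 5 arrays, at 11.61, 10.93, 9.22, 7.79 and 9.85. Elane was at or below 7.5 on every array. Lyz1 and Lyz2, lysozymes of near-identical sequence shared with macrophages, averaged 12.08 ± 0.85 and 11.77 ± 0.99 (SD, n = 5 each), both lowest on array 3. Another probe of each was also lowest there. The remaining Lyz1 probe was highest on array 3, at 9.18, 9.60, 9.89, 9.86 and 9.20. The remaining Lyz2 probe was lowest on array 4, at 9.92, 10.69, 10.46, 9.63 and 9.83.

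Genes of late neutrophils were highest on array 5. S100a8 read 6.78, 6.84, 9.73, 6.91 and 11.10, S100a9 9.01, 9.13, 6.81, 10.09 and 12.30, and Ngp 6.98, 7.10, 9.98, 6.95 and 10.70. Camp, Chil3, Lcn2 and Cd177 were at 9.85, 9.98, 9.36 and 9.47 on array 5 and at or below 7.54 on every other array. Of the 32 members, 24 were above 7.5 on array 5, against 15, 16, 15 and 9 on arrays 1 to 4. Itgam, Ltf, Mmp8 and Retnlg were at or below 7.5 on all 5.

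Monocyte, macrophage and dendritic genes were above 7.5 on all 5 arrays in 18 of 34 members (52.9%), and each of the 34 was above it on at least 1 array. When a second probe of the gene also had to pass, which genes with 1 probe cannot, 2 of 34 members (5.88%) did, against 1403 of all 19057 genes (7.36%). Psap and Ctsb, lysosomal proteins that many cells make, averaged 12.97 ± 0.53 and 12.29 ± 0.72 (SD, n = 5 each). Siglech, a receptor of plasmacytoid dendritic cells and their precursors, averaged 12.43 ± 0.19 (SD, n = 5), but neither of its other 2 probes was above 7.5 throughout. The defining genes were weaker. Csf1r, the macrophage growth factor receptor, read 8.15, 7.76, 6.94, 8.17 and 8.30, Adgre1 (F4/80) 9.99, 9.34, 6.72, 10.70 and 9.26, and Cd14 was above 7.5 on array 1 alone, at 8.46.

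This list was low on array 3 and high on arrays 1 and 4. Of its 34 members, 20 had their lowest value on array 3, against 24.5% of all genes above 7.5 on any array. The highest value fell on array 1 for 12 and on array 4 for 15, against 22.9% and 19.6% of all such genes. It fell on array 3 for 1 member, Ccr2. Members above 7.5 numbered 28, 23, 21, 30 and 28 on arrays 1 to 5. The complement genes C1qc and C1qb, made by tissue macrophages, read 11.88, 9.74, 6.71, 11.21 and 10.09 for C1qc and 11.86, 11.16, 8.87, 10.82 and 9.78 for C1qb. Aif1 read 12.54, 11.75, 9.32, 12.39 and 12.28. Without array 3, 22 of 34 members (64.7%) were above 7.5 on every array, against 28.1% of all genes.

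Antigen presentation genes were above 7.5 throughout in 13 of 17 members (76.5%). The class II chains H2-Aa and H2-Ab1 and the invariant chain Cd74 averaged 12.01 ± 0.54, 12.16 ± 0.61 and 12.16 ± 0.76 (SD, n = 5 each). B2m, the light chain of class I, averaged 12.84 ± 0.15 (SD, n = 5). Of the 17 members, 9 were highest on array 4 and 7 on array 1, while 7 were lowest on array 2 and 7 on array 3. Among all genes above 7.5 on any array, these shares were 19.6%, 22.9%, 14.4% and 24.5%, in that order. Ciita, the class II master regulator, was at 10.97 on array 4 and at or below 7.08 on the other arrays, although its other probe read 7.67 on array 2.

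Erythroid genes were above 7.5 on all 5 arrays in 10 of 30 members (33.3%). The beta globins Hbb-bs and Hbb-bt averaged 11.94 ± 0.36 and 11.28 ± 0.43 (SD, n = 5 each), on sequences so alike that their probes may share signal. Hba-a1 was above 7.5 on array 5 alone, at 9.10. The regulators were near the minimum, with Gata1 above it on arrays 1 and 3, at 7.78 and 7.96, and Klf1 on array 5 alone, at 8.62. Epor, the erythropoietin receptor, was at or below 7.5 on every array. Alas2, the erythroid enzyme that begins haem synthesis, was at 11.24 on array 3 and at or below 7.54 on the others.

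Megakaryocyte and platelet genes were above 7.5 throughout in 10 of 23 members (43.5%). The platelet chemokine Pf4 read 11.47, 10.05, 9.82, 11.41 and 10.93, and Gp9, a chain of the von Willebrand factor receptor, averaged 11.59 ± 0.26 (SD, n = 5). Itga2b (CD41) was at 8.32, 8.21, 7.43, 7.71 and 8.08, and Gp1bb was above 7.5 on array 1 alone, at 7.55. Plek, a platelet signalling protein, was the most variable member above 7.5 on all arrays, with a mean of 10.77 ± 1.38 (SD, n = 5).

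Mast cell and basophil genes reached 7 of 25 members (28.0%), close to the background share. Mcpt8, a basophil protease, read 9.66, 11.08, 10.79, 8.04 and 10.40, and Cpa3, a mast cell protease, was above 7.5 on 4 arrays with a mean of 8.27. Fcer1a, Ms4a2 and Prss34 were at or below 7.5 on every array. No eosinophil gene of 9 was above 7.5 on all 5 arrays. Prg2, the eosinophil major basic protein, had the largest SD of any named gene, with 11.42 and 11.49 on arrays 3 and 5 against 7.24, 7.30 and 6.76 on arrays 1, 2 and 4, whereas Epx and Il5ra were at or below 7.5 on all 5.

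Lymphoid genes lay below the background share. B lymphoid genes were above 7.5 throughout in 4 of 25 members, namely Jchain, Cd24a, Pou2af1 and Cd79b. Jchain, the joining chain of secreted antibodies, read 11.12, 11.40, 12.70, 11.40 and 12.60, and Cd24a averaged 11.13 ± 0.14 (SD, n = 5). Pax5, Rag1, Rag2 and Ms4a1 were at or below 7.5 on every array. The immunoglobulin gene Ighg1 was at 12.06 on array 5 and at or below 7.22 on the other 4.

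T and NK lymphoid genes were above 7.5 throughout in 6 of 30 members. Apart from Prf1, they were Cd8b1, Nkg7, Cd8a, Cd2 and Cd247, of which Cd8b1 averaged 10.34 ± 0.42 and Nkg7 9.87 ± 0.85 (SD, n = 5 each). No other probe of Cd8b1, Cd8a or Cd247 was above 7.5 throughout, and their next brightest probes averaged 7.43, 6.73 and 7.01. Nkg7 and Cd2 had 1 probe each. Cd3d and Cd3e, signalling chains of the T cell receptor, were highest on array 5. Cd3d was at 10.49 there and at or below 6.94 on the others, Cd3e read 7.54, 6.93, 7.07, 8.57 and 10.06, and the chemokine Ccl5 read 8.43, 6.92, 7.01, 8.40 and 10.89. Cd3g, Cd5, Gata3 and Il2rb were at or below 7.5 on every array.

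Stromal and endothelial genes were above 7.5 throughout in 5 of 28 members (17.9%), and 12 were at or below it on every array. The 5 were Angpt1, Acta2, Egfl7, Vcam1 and Cspg4, of which Angpt1, a Tie2 ligand that blood stem cells also make, averaged 11.07 ± 0.28 (SD, n = 5). Cxcl12, the niche chemokine, read 10.47, 7.49, 9.97, 9.18 and 11, on 1 of its 5 probes. Col1a1 was at or below 7.5 on all arrays, and Cdh5 was above it on array 5 alone, at 7.95. On array 5 Fn1 read 10.02, against 6.94 to 7.05 on the others.

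**Figure D4:**
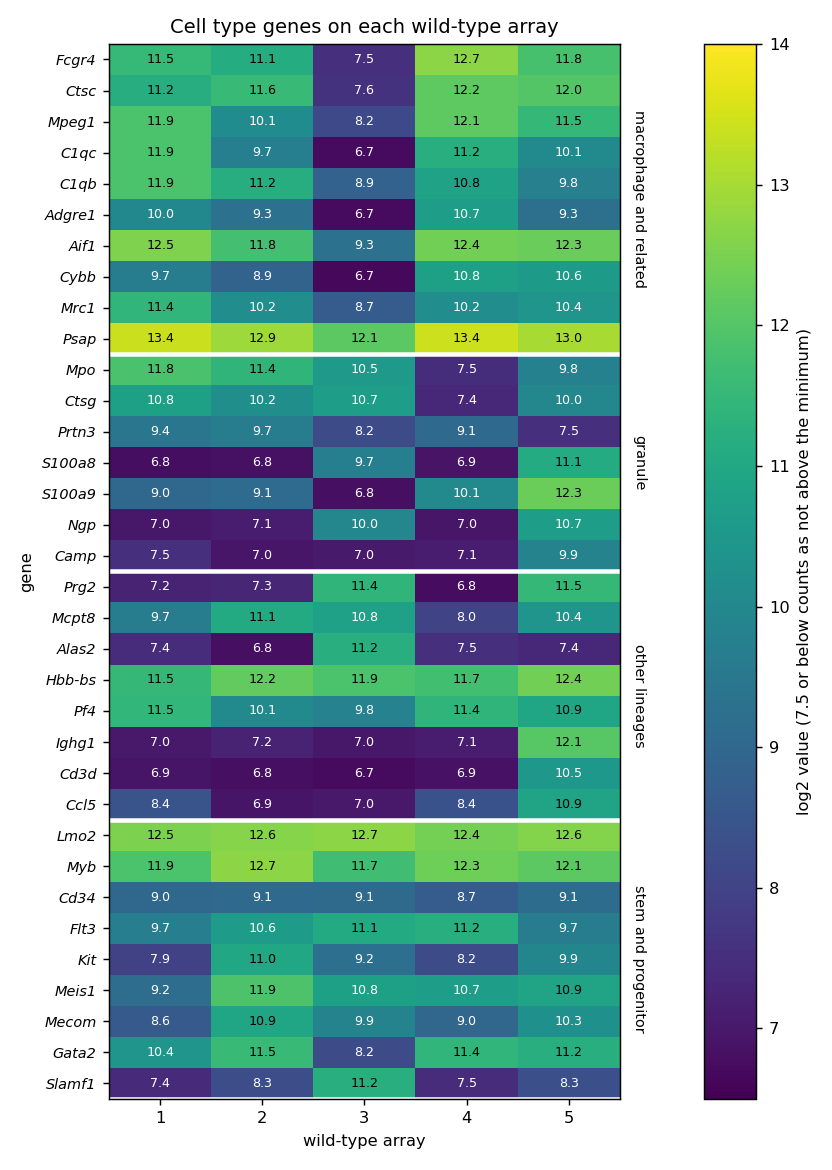
Log2 values (colour and printed number) of cell type genes on wild-type arrays 1 to 5, in 4 groups. The 10 genes of the top group are a selection that includes Fcgr4, Ctsc and Mpeg1, named for their spread. On their brightest probes these 10 are lowest on array 3, whereas 20 of the 34 members of the macrophage list are. Late granule genes and Ighg1, Cd3d and Ccl5 are highest on array 5, and Lmo2 and Cd34 hold nearly the same level on all 5 arrays.

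Interferon response genes were above 7.5 on all 5 arrays in 32 of 57 members (56.1%). Ifitm3, Ifitm1 and Ifitm2, membrane proteins that block viral entry, averaged 12.60 ± 0.45, 12.55 ± 0.22 and 12.36 ± 0.17 (SD, n = 5 each). The GTPase Irgm1 averaged 12.60 ± 0.07 and Irf1, a transcription factor of the pathway, 11.34 ± 0.19 (SD, n = 5 each), and all 4 other Irf1 probes were also above 7.5 throughout. The classical inducible genes were more uneven. Ifit3 read 10.78, 10.06, 9.23, 12.38 and 9.56, Isg15 7.51, 9.29, 7.10, 9.69 and 7.53, and Ifit1 was above 7.5 on arrays 1 and 4, at 8.02 and 8.96. Of the 55 members above 7.5 on any array, 28 were lowest on array 3, while 19 were highest on array 1 and 21 on array 4. Over all genes above 7.5 on any array, these shares were 24.5%, 22.9% and 19.6%. Other lists were also often lowest on array 3, at 41.2% for cyclins, kinases and brakes and 39.7% for ribosomal proteins. The macrophage list was low and high on the same arrays, with 28, 23, 21, 30 and 28 of its 34 members above 7.5 on arrays 1 to 5. Without array 3, 38 of 57 interferon response genes (66.7%) were above 7.5 on every array, against 28.1% of all genes. The part of macrophage genes in this pattern was not tested.

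Immediate early and stress genes were above 7.5 throughout in 22 of 47 members (46.8%). The chaperone Hspa8 had the smallest SD of all 4883 genes, with 13.21, 13.26, 13.24, 13.25 and 13.27. Egr1, an immediate early factor known to hold stem cells in quiescence, read 11.83, 10.65, 11.88, 11.59 and 12.65. Jun averaged 9.46 ± 0.83 (SD, n = 5). Fos read 7.47, 8.40, 8.29, 10.13 and 10.32, and Fosb was at 10.27 on array 4 and at or below 7.38 on the others. Of 45 members above 7.5 on any array, 17 were highest on array 4 and 14 on array 5, or 37.8% and 31.1%. The shares over all genes above 7.5 on any array were 19.6% and 17.4%.

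Cytokine signalling genes were above 7.5 throughout in 24 of 53 members (45.3%). Stat5a and Stat5b, which relay thrombopoietin and other cytokines, averaged 10.85 ± 0.24 and 10.48 ± 0.31 (SD, n = 5 each). Their inhibitor Cish, a STAT5 target, averaged 10.33 ± 0.89 (SD, n = 5). Stat3 averaged 11.48 ± 0.34 and Mcl1, a survival protein, 11.05 ± 0.36 (SD, n = 5 each). Jak2 was above 7.5 on 4 arrays and read 7.03 on array 3, where another of its probes read 9.58. Socs3, a feedback inhibitor, read 6.90, 7.29, 10.94, 9.12 and 10.59. The survival gene Bcl2l1 switched between arrays, at 11.78, 6.84, 11.63, 7.39 and 10.22, although another of its probes was above 7.5 on all 5. Socs1 and Il3ra were at or below 7.5 throughout.

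Adhesion and niche genes reached 21 of 34 members (61.8%). The integrin chains Itgb1 and Itga4, which hold progenitors in the marrow, averaged 10.47 ± 0.24 and 9.61 ± 0.35, and Cxcr4, the receptor for Cxcl12, 10.04 ± 0.47 (SD, n = 5 each). Cd44 averaged 9.84 ± 0.54 and the pan-leukocyte gene Ptprc (CD45) 10.78 ± 0.34 (SD, n = 5 each). Robo4, a guidance receptor of stem cells and endothelium, was at 10.75 on array 4 and at or below 7.96 on the others.

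Among the 4883 genes above 7.5 on all 5 arrays the median SD was 0.577, with 0.218 at the 10th percentile and 1.11 at the 90th. An SD above 1 was found in 765 genes (15.7%). Spread depended on level. The median SD was 0.495 for means of 7.5 to 8.5, 0.779 for 8.5 to 9.5, 0.708 for 9.5 to 10.5, 0.452 for 10.5 to 11.5, 0.268 for 11.5 to 12.5 and 0.152 above 12.5. The median SD was smallest for the brightest genes, and for means near 7.5 the requirement that all 5 values exceed it limits how large an SD can be. The steadiest genes after Hspa8, among those with a mean above 10, were H3c14, Tpm3, Prf1, Sfxn1, Appl1, Ctns, H3c7, Eif3i and Zbtb2. Their SDs were 0.031 to 0.054 on their brightest probes, and no other probe of Prf1, Ctns or H3c7 was above 7.5 throughout.

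**Figure D5:**
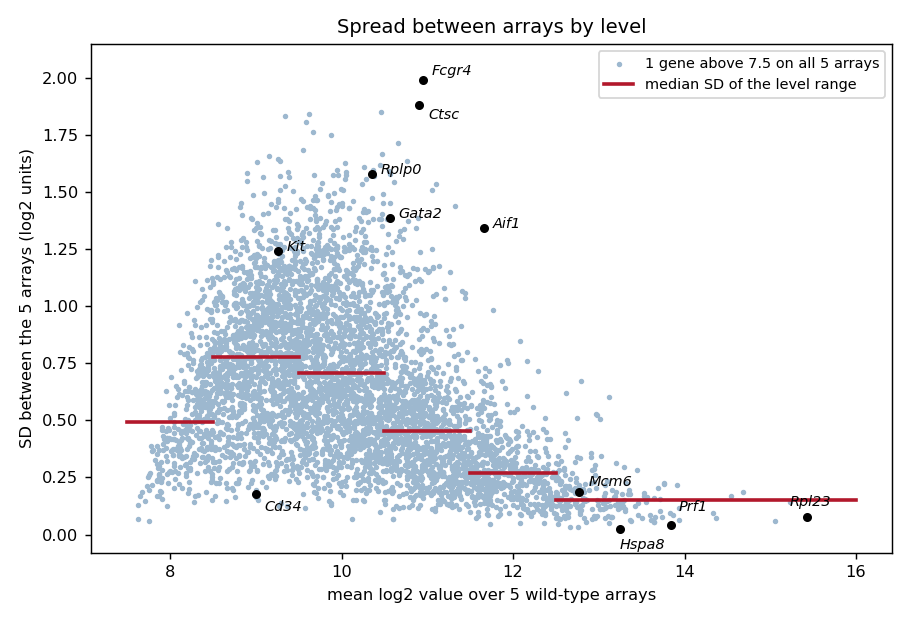
SD between the 5 wild-type arrays against the mean log2 value, for the 4883 genes above 7.5 on all 5 (points), with the median SD of 6 level ranges (horizontal lines). Medians fall to 0.152 above a mean of 12.5, and Fcgr4 and Ctsc lie at the top, with SDs of 1.99 and 1.88.

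Fcgr4 and Ctsc had the largest SDs of the 4883 genes. Fcgr4, an activating Fc receptor, read 11.53, 11.14, 7.54, 12.70 and 11.83, and the lysosomal protease Ctsc read 11.19, 11.56, 7.60, 12.15 and 12.01. Mpeg1, a pore-forming protein of phagocytes, read 11.86, 10.14, 8.17, 12.13 and 11.49. All 3 were lowest on array 3 and highest on array 4. Without array 3 the SDs of Fcgr4, Ctsc and Mpeg1 were 0.664, 0.439 and 0.882, against 1.99, 1.88 and 1.64 over all 5 arrays. Sync, a cytoskeletal linker, had the same low array, at 7.61 against 11.25 to 11.64, and its SD without array 3 was 0.20.

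The rest of the 20 most variable genes followed other array patterns and other functions. The transcription genes Gtf3c2 and Cdk9 read 10.62, 11.85, 12.32, 7.64 and 9.88 for Gtf3c2, whose other probes read 9.78 and 9.51 on array 4, and 11.53, 8.36, 11.14, 7.79 and 7.90 for Cdk9. The B cell coactivator Pou2af1 was low on array 4 alone, at 7.64 against 10.70 to 11.92. Cep63, Arhgap26 and Lysmd1 were highest on arrays 3 and 5 on their brightest probes, at 11.61 and 11.43 for the centrosome protein Cep63. Their next brightest probes differed. That of Arhgap26 was lowest on array 5, at 7.90. That of Cep63 was higher on array 2 than on array 5, at 9.72 and 9.05. That of Lysmd1 was higher on array 4 than on array 3, at 8.63 and 8.24. The others were Tbc1d20, Capn5, Sepsecs, Ppp4r1, Pccb, Zmym4, Arrb2, Fam53a, Lamtor2 and Slco4a1, with SDs of 1.60 to 1.77. In 16 of the 20 the lowest value lay between 7.5 and 8, so each of these was close to the minimum on at least 1 array.

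Genes above 7.5 on 1 to 4 arrays reached larger spans. Besides Prg2, Bcl2l1 and Ighg1, the 10 most variable held Id2, an inhibitor of E proteins, at 11.40, 7.83, 7.30, 12.06 and 11.89. Its other probes read 9.86 and 8.97 on array 2 and were likewise lowest on array 3. The interferon-induced GTPase Gbp5 was at 6.92 on array 2 and 10.70 to 12.43 elsewhere. The other Gbp5 probe was at or below 7.5 on every array. Cd163, a haemoglobin scavenger receptor of macrophages, read 10.83, 11.57, 6.70, 9.78 and 6.71. P2ry6, a nucleotide receptor, was at 6.76 on array 3 and between 11.02 and 12.12 elsewhere, and Entpd5 was at 7.39 on array 1, where another of its probes read 9.57, and between 11.86 and 12.80 elsewhere. Metrn and Slfn1 completed the set, with SDs of 2.25 and 2.23.

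Arrays 1 and 3 held both the lowest and the highest value of a wide-spread gene most often. Of the 765 genes with an SD above 1, 216 were lowest on array 3 and 208 on array 1, against 140, 103 and 98 on arrays 4, 5 and 2. The highest value fell on array 1 for 186 and on array 3 for 157, against 154, 143 and 125 on arrays 4, 5 and 2. Over all genes above 7.5 on any array, 24.5% were lowest on array 3 and 25.1% on array 1, and 23.3% and 22.9% were highest there. With values at or below 7.5 set to 7.5, array 3 stood at least 2 above all the other arrays for 109 genes and at least 2 below them for 72, and array 1 did so for 106 and 50. Array 2 stood apart least, for 43 genes above and 8 below.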

How the data were processed

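Illumina mouse bead arrays measured LSK RNA in 9 samples, of which the 5 wild-type arrays were analysed. The values are log2 values deposited by the authors in the series' value table. Per the submitters' processing notes lumi was used. Its version, background correction, transformation and normalization were not given in the sources used here. The platform annotation names 1 gene for 34885 of 45281 probes, several for 18 and none for 10378. For each of 19057 genes the probe with the highest mean over the 5 arrays was kept, and its mean and SD were computed (Python 3.11.15, numpy 2.4.6, pandas 2.3.3, matplotlib 3.10.9). A gene was counted as above the minimum when it exceeded 7.5 on all 5 arrays. No test between groups was made. The scripts were tested on simulated data.

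Named genes were the 25 brightest, the 20 most variable above 7.5 on all 5 arrays, the 10 most variable above it on 1 to 4, the 10 steadiest with a mean above 10, and in each list the defining genes, the 6 brightest and the 3 most variable. The genes and lists were chosen with earlier results of these data known, and genes named outside this rule were chosen after their values were seen. Of 1106 list entries, 957 matched by symbol and 55 by synonym, and 94 had no named probe. Promoters came from RefSeq. A separate table of values before normalization has 18 columns that could not be mapped to samples and were not used. Alternatives were other probes, scalings, minimums and arrays left out.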

Additional observations from a re-analysis of the deposited data

Results flagged for a closer look

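Among the genes named above, 1 array stood apart from the other 4 by Dixon's gap-to-range criterion in 40 of 234 genes with a value above 7.5 on some array (17.1%), where chance gives about 1 in 20. Several of these genes were named because of their spread, so the share is no measure of the arrays as a whole. The values are those of the brightest probe, and other probes of a gene can differ. No explanation was tested for any of these genes.

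On array 1, the low values were Rpl17 at 6.84, Ndufb8 at 12.21, Myc at 10.09, Runx1 at 7.38 and Entpd5 at 7.39, although other probes of Runx1 and Entpd5 read 10.81 and 9.57 there. The high values on array 1 were Mif at 13.25, Ldhb at 7.56, the cell cycle brake Cdkn1a at 9.38 and the monocyte receptor Cd14 at 8.46. On array 3, the low values were Rpl4 at 6.87, Atp5b at 12.01, Ndufb6 at 8.89, Ifitm2 at 12.05, Sync at 7.61, Aif1 at 9.32, Ctsc at 7.60 and P2ry6 at 6.76. Of the other Aif1 probes, 1 read 7.16 there and 1 read 10.06. The high values on array 3 were Socs2 at 10.36, Slamf1 at 11.23, Alas2 at 11.24, Cdkn2c at 10.29 and Ccne1 at 8.45. Other probes did not share the Socs2 and Slamf1 values, with 6.85 for Socs2 and 7.10 and 6.98 for Slamf1 there. The next brightest Cdkn2c probe was at or below 7.5 on every array.

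On array 4, the low values were Eif2s3y at 6.79, Bbc3 at 6.91, Ctsg at 7.38 and Pou2af1 at 7.64. The high values on array 4 were Ciita at 10.97, Fosb at 10.27, Ptprc at 11.38 and Robo4 at 10.75. On array 5, Ncl was low at 11.07. The high values on array 5 were Camp at 9.85, Chil3 at 9.98, Lcn2 at 9.36 and Cd177 at 9.47, Hba-a1 at 9.10, Klf1 at 8.62, Ighg1 at 12.06, Cd3d at 10.49 and Fn1 at 10.02. No named gene was singled out on array 2.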

How the results depend on the processing

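The count of 4883 genes above 7.5 on all 5 arrays became 8880 with a minimum of 7 and 1403 when a second probe also had to pass, an alternative chosen after seeing the data, and lay between 5075 and 5346 when an array was left out. It stayed between 3808 and 6483 with a minimum of 8, with 4 arrays sufficing, with probes averaged or chosen over all 9 arrays, and with arrays centred or quantile normalized. Of the 25 brightest genes, 6 remained with probes averaged and 9 with a second probe required, and 24 to 25 without any 1 array. Of the 20 most variable genes, 8 remained with probes averaged, 4 with a minimum of 8, 11 by range in place of SD, 5 with a second probe required and 7 to 12 without any 1 array, fewest without array 3. The median SD of 0.577 lay between 0.452 and 0.581 under the alternatives run. With a second probe required, the gene lists kept 4 of 7 neutrophil, 2 of 18 macrophage, 1 of 10 megakaryocyte, 1 of 7 mast cell, 0 of 4 B lymphoid and 0 of 6 T and NK genes, and 20 of 52 G1 and S, 16 of 49 G2 and M, 12 of 52 ribosomal and 22 of 68 respiratory chain genes. A gene with 1 probe cannot pass, which held for 1672 of the 4883. Of the 3211 with several probes, 1403 (43.7%) passed. These list counts therefore also depend on how many members have 1 probe, and a member lost is not evidence of absent signal. The cause of these shifts was not tested beyond what each alternative removes. No paired analysis was possible because no groups were compared. Values near 7.5 have no firm order, and 5 arrays limit the precision of every SD.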
